A study of Homo sapiens with 30 samples.

Results

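The comparison described here sets LNCaP cells given 0.06 nM R1881 against LNCaP cells given vehicle, with chromatin accessibility as the readout. It rests on 6 of the 30 libraries of the series, 3 per group, chosen by their labels as replicates 3, 4 and 5 of each group. LNCaP is an established human prostate cancer line that expresses the androgen receptor, and R1881 (methyltrienolone) is a synthetic androgen that cells metabolise poorly. All cells, controls included, were seeded at 130000 per well and grown in 8% charcoal-stripped serum, depleted of steroids, for 48 hours. They then received vehicle or R1881 for 24 hours. The series as a whole asks how chromatin accessibility relates to a proliferative response that is not linear in androgen dose. It also holds LNCaP at 0.03, 0.1 and 10 nM and the VCaP line at several doses. The labels do not say that replicates were separate cultures, so p-values measure only the spread between these samples.

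The androgen receptor is a ligand-activated transcription factor. On binding hormone it enters the nucleus, where a dimer binds androgen response elements, most of them in enhancers far from start sites. FOXA1, HOXB13 and GRHL2 are factors that share many of these enhancers in prostate cells. The receptor's well-known targets include KLK3, which encodes prostate-specific antigen, its neighbour KLK2 and the cochaperone gene FKBP5. The receptor also represses genes.

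Accessibility was measured by Omni-ATAC-seq, which reads out where the Tn5 transposase can cut accessible DNA. The authors deposited 1 peak list per library, and a peak's strength is its −log10 p against local background. Lists held 135254, 162333 and 174513 entries with vehicle (replicates 3, 4 and 5) and 137360, 155461 and 214898 at 0.06 nM. Each LNCaP list was shortened to its 134750 strongest entries. Windows reaching 250 bp to either side of peak summits of the 6 libraries gave 230472 regions, and 122103 of them with a peak in at least 3 of the 6 libraries were tested. A region's value in a library, called its rank below, is the percentile of its peak by −log10 p, from 0 to 100. A rank of 0 means that the shortened list held no peak there, though the deposited list may hold a weaker one. Having no peak, or being unlisted, is meant in this sense below. Differences are in percentile points. A region was called higher or lower at a Benjamini-Hochberg adjusted p under 0.05 in limma, fitted to the 15 LNCaP libraries. Genes are the nearest protein-coding genes within 100 kb and are not shown to be regulated from the region.

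The 6 libraries differed in peak strength as well as at single regions. Entries at a −log10 q of 5 or more numbered 86974, 89388 and 56286 with vehicle and 94949, 95272 and 130172 at 0.06 nM. All 3 libraries at 0.06 nM lay above all 3 with vehicle, which gives the smallest p that 3 against 3 allow (exact permutation test, two-sided, p = 0.1; adjusted p = 0.7 over 7 list measures). Median width was 491, 466 and 362 bp with vehicle and 505, 490 and 520 bp at 0.06 nM, so vehicle replicate 5 had the narrowest peaks. The background pileup, a measure of relative depth recovered from the lists, was 3.06, 4.05 and 4.83 with vehicle and 3.59, 4.07 and 5.26 at 0.06 nM, and the groups overlapped. The part of these list differences in the results was not tested. Spearman's rho of ranks ran from 0.689 to 0.751 over the 9 pairs between groups, from 0.755 to 0.856 within vehicle and from 0.833 to 0.867 within 0.06 nM. LNCaP is a luminal line, and every library listed a peak less than 1 kb from an end of each of the 10 luminal epithelial markers. Of the basal markers, 5 to 6 of 9 had one with vehicle and 4 to 5 at 0.06 nM. TP63, KRT14 and KRT15 had none, whereas ITGA6, LAMB3 and NGFR had a strong one in every library. Of 12 neuroendocrine markers, 10 had one in every library, so such peaks do not single out the luminal list.

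Promoters show where a receptor element lies in sequence next to a change, so 5 are printed first, read from RefSeq (GRCh38.p14) as the 250 bases before the start site on the gene's strand, 5′ to 3′. KLK3 (chr19:50854665-50854914, plus strand) and KLK2 (chr19:50873189-50873438, plus) are the textbook receptor targets. LINC00844 (chr10:58999268-58999517, plus), SPINT3 (chr20:45515623-45515872, minus) and MAP3K6 (chr1:27366962-27367211, minus) are shown because their promoters rose at 0.06 nM and match a relaxed form of the receptor element, GNACA and TGTNC with any 3 bases between. Capitals mark matches to that element, to AGAACA, or to GAACAGCAAGTGCT, a string chosen after the values were seen because KLK3 and KLK2 share it.
KLK3: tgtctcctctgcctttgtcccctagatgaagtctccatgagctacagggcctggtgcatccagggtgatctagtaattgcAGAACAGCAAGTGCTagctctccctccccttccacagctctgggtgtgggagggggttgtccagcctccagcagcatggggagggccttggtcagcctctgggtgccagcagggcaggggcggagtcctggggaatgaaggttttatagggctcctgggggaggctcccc
KLK2: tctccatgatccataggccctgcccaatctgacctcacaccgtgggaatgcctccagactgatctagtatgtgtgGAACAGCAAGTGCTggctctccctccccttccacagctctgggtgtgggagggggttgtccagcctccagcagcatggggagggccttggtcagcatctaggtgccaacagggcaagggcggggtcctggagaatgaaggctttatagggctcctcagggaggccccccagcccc
LINC00844: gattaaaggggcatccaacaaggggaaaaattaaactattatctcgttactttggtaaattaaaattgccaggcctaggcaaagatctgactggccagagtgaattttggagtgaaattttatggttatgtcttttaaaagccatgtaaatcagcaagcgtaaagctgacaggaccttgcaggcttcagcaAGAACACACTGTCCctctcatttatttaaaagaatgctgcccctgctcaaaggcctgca
SPINT3: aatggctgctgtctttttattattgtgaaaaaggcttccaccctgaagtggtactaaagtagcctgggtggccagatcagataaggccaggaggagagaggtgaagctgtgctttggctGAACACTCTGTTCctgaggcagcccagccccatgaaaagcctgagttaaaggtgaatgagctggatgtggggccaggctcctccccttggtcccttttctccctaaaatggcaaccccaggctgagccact
MAP3K6: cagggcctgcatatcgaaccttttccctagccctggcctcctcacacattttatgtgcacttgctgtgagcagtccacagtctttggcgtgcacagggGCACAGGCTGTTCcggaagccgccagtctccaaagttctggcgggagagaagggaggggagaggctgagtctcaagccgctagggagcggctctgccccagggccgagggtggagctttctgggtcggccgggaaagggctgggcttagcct
In KLK3 the capitals begin 170 bases before the start site with AGAACA, which runs on into the shared string. This stretch is known as the proximal androgen response element of KLK3. The shared string begins 175 bases before the start in KLK2, and of all 34789 promoters only these 2 hold it. The capitals begin 59 bases before the start in LINC00844, a long noncoding RNA gene, 131 bases before it in SPINT3, a protease inhibitor gene, and 152 bases before it in MAP3K6, a kinase gene.

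These 5 promoters gained rank to different extents. The window at the KLK3 promoter (chr19:50854569-50855069) stood at 39.0, 51.4 and 20 with vehicle and at 81.8, 86.2 and 66.3 at 0.06 nM, a difference of 41.3 (SE 8.31, n = 3 per group, limma adjusted p = 0.00451). Every 0.06 nM library lay above every vehicle library there, although ranking peaks by fold enrichment in place of −log10 p ended the call (highest adjusted p over all alternatives 0.636). The LINC00844 window was listed at 0 in all 3 vehicle libraries and at 78.1, 67.7 and 69.2 at 0.06 nM (difference 71.7, SE 6.25, limma adjusted p = 2.07e-06). The SPINT3 window had 47.1, 20.5 and 0 with vehicle and 87.8, 85.6 and 80.2 at 0.06 nM (62.0, SE 7.94, limma adjusted p = 0.000106). The LINC00844 window was tested only because all 3 libraries at 0.06 nM had a peak, and in the SPINT3 window the groups did not overlap. KLK2 started high, at 86.1, 81.6 and 81.2 with vehicle, and reached 95.9, 94.8 and 87.9 (9.88, SE 2.25, limma adjusted p = 0.0108). Its call was lost without 0.06 nM replicate 3 (limma adjusted p = 0.0683) or replicate 4 (0.0612). MAP3K6 went from 89.1, 89.7 and 82.5 to 93, 93.1 and 94.2 (6.38, SE 1.54, limma adjusted p = 0.0159), and lost its call without 0.06 nM replicate 5 (0.0561). Ranking by fold enrichment also ended the KLK2 and MAP3K6 calls.

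At 0.06 nM far more regions gained rank than lost it. Of the 122103 regions tested, 9959 (8.16%) were called, 8742 higher (7.16%) and 1217 lower (0.997%) than with vehicle, and 23287 had an unadjusted p under 0.05. The median difference was 43.6 points in higher regions and −36.1 in lower ones, beside 0.261 over all regions tested. Over all regions tested, every 0.06 nM library lay above every vehicle library in 14.4% and below in 7.99%, which is the background for groups that do not overlap at a single region. The higher regions formed 8663 separate loci after joining those within 1 kb, and the lower regions 1210. By chromosome, the share called higher ran from 2.68% on chromosome 19 to 9.09% on chromosome X.

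The split between directions depended on scale. Higher regions made up 87.8% of the calls, against 69.4% when ranks were turned into normal scores, 68.8% for summit pileups where all 6 libraries had a peak and 74.7% for the 50000 strongest entries. With only entries at a −log10 q of 5 or more the share was 99.1%. The lower calls depended on vehicle replicate 5 and numbered 2714 without it, whereas they numbered 629 without 0.06 nM replicate 3 and 659 without replicate 4. Fitting only the 6 libraries gave 3063 higher and 193 lower regions. Among regions described below, that smaller fit ended the calls at MET, PRUNE2, MKI67, MCM4, ODC1, NEDD4L, AKAP14, RAB4A, HERC3, both KLK2 regions, the KLK3 promoter and enhancer, the 5′ end of FKBP5, the MAP3K6 promoter and the ACP3 rise. Keeping only entries at a −log10 q of 5 or more ended those at PRUNE2, MKI67, TULP4, LOC124901866, ARMC9 and the KLK2 region outside the gene. The falls at KIRREL3, KCNA4, OR6J1, COL1A2, RAB4A, HERC3 and AKAP14 could not be tested there. Fewer than 3 of the 6 libraries had so strong an entry at those regions. The CD44 call ended when any overlap of 1 bp placed a peak in a region.

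Most higher regions were weak or unlisted with vehicle. Their median rank was 12.1 with vehicle and 68.2 at 0.06 nM, and that of the lower regions went from 50 to 7.20. In 3108 of the 8742 higher regions no vehicle library had a peak. These regions passed the filter only because all 3 libraries at 0.06 nM had one, so their separation is built in. The same holds for 307 of the 1217 lower regions, which had a peak in all 3 vehicle libraries and none at 0.06 nM. A peak was listed in all 6 libraries in 2939 higher and 375 lower regions, where the change was one of strength.

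**Figure D1:**
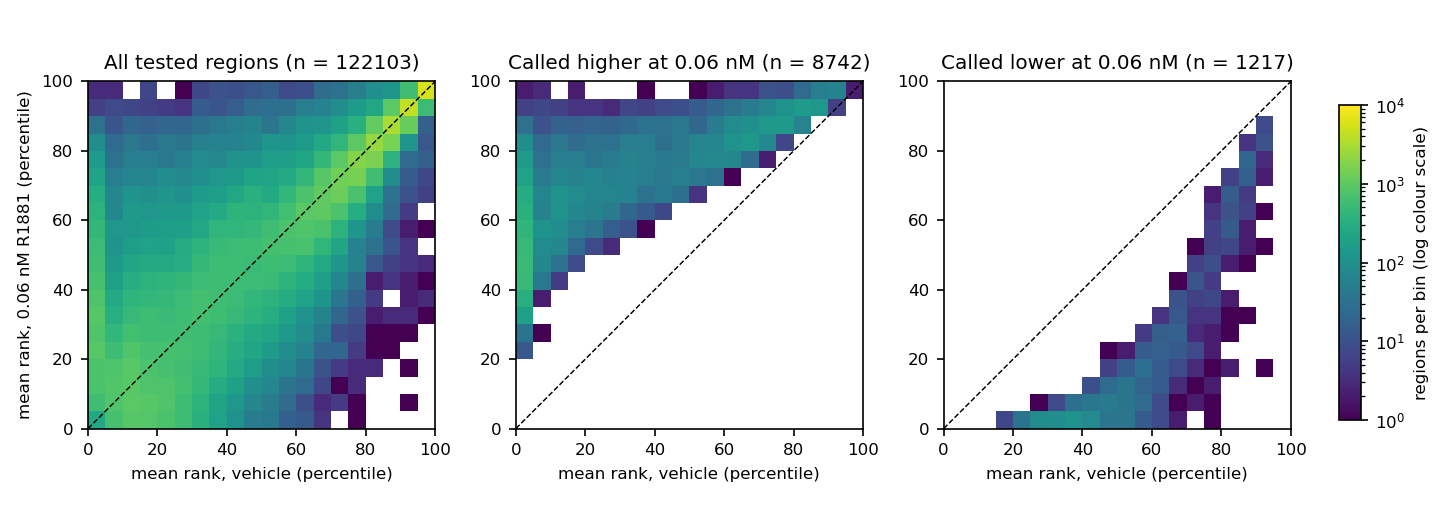
Mean rank of the peak at 0.06 nM R1881 (vertical axis, percentile) against that with vehicle (horizontal axis), as the number of regions per bin on a log colour scale, for all tested regions, those called higher and those called lower. The dashed line marks equal ranks. Higher regions crowd the left edge, where 3108 of the 8742 had no vehicle peak, and lower regions lie along the bottom.

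The largest rises joined regions near unrelated genes. SNX25, which encodes a sorting nexin, held a region within the gene (chr4:185350154-185350654) at 0 in every vehicle library and at 94.0, 89.4 and 89.8 at 0.06 nM (difference 91.1, SE 4.04, limma adjusted p = 2.87e-09). The fold enrichment of its peak at 0.06 nM, by the authors' values, was 18.8, 14.6 and 14.3. It ranked among the strongest peaks of all 3 treated libraries and was on none of the shortened vehicle lists. A region within CACNG4, a calcium channel subunit gene, went from 0 in all 3 to 87.8, 91.3 and 90.9. MAB21L3 had weak vehicle peaks of 3.67, 4.76 and 3.54 and reached 93.7, 92.7 and 91.3 (88.6, SE 2.59, limma adjusted p = 1.35e-10). A further 6 large rises were nearest to CTAGE1, EMB, OTOL1, SLC38A4, GNLY and USP40 and differed by 88.6 to 90.7 points.

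Among the largest falls, regions left the shortened lists altogether. SPOCK1, a proteoglycan gene, held a region (chr5:137395349-137395849) at 50.1, 62.0 and 72.5 with vehicle and at 0 in all 3 libraries at 0.06 nM (difference −61.5, SE 7.06, limma adjusted p = 3.31e-05). KIRREL3, a gene for a cell adhesion protein, had 69.5, 66.5 and 54.2 with vehicle and 0 in all 3 (−63.4, SE 10.5, limma adjusted p = 0.000994). A region 91.8 kb from KCNA4, a potassium channel gene, had 68.1, 68.6 and 52.5 with vehicle and 0 throughout at 0.06 nM (−63.1). The vehicle peaks of these 3 regions were of middling rank in the shortened lists, and no treated library had one in its shortened list. Further large falls lay near SLIT1, OLFML3, OR6J1, SASH1 and TULP4, between −61.7 and −57.8. Those near LOC124901866 (−66.0) and ARMC9 (−64.3) were the greatest, but lost the call without 0.06 nM replicate 3 (limma adjusted p = 0.0542 and 0.0643) or replicate 4 (0.0546 and 0.0647). The ARMC9 call was also lost without 0.06 nM replicate 5 (0.0542) or vehicle replicate 3 (0.0627), and with lists as deposited.

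**Figure D2:**
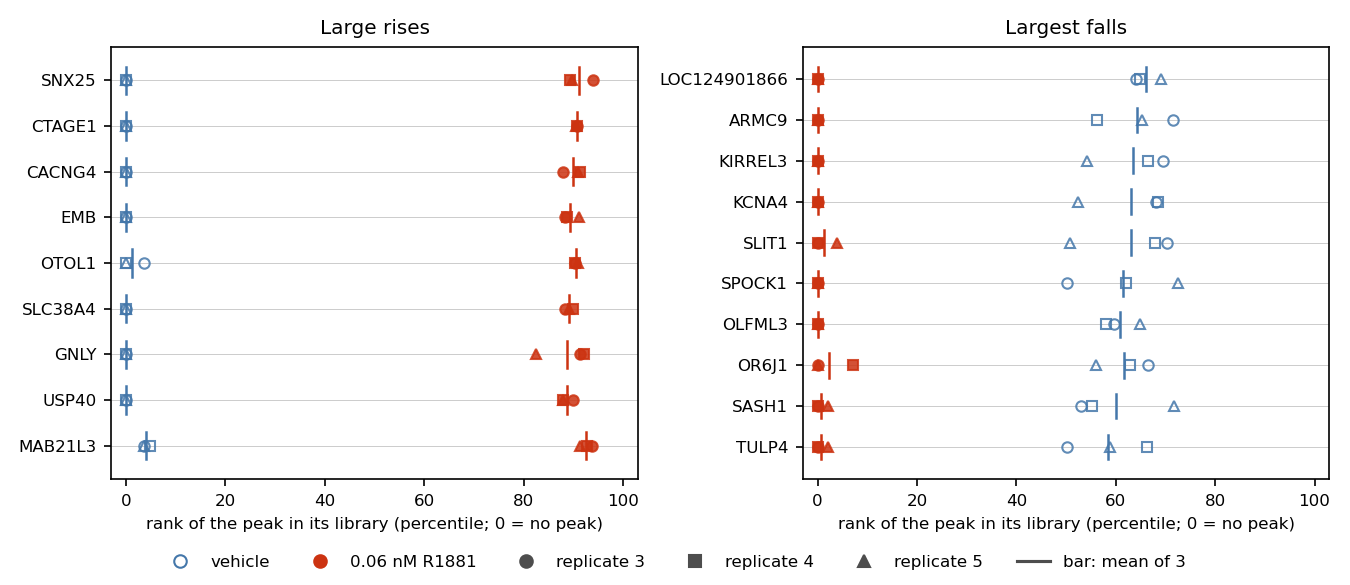
Rank of the peak in each library (horizontal axis, percentile, 0 where no peak was listed) at 9 regions with large rises and the 10 with the largest falls, named by nearest gene. Open blue symbols are vehicle and filled red symbols 0.06 nM R1881, symbol shapes are replicates and bars are means of 3. The regions were chosen for separate groups, and most have 0 in all 3 libraries of one group.

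Some genes had called regions in number. ZNF385D, a zinc finger gene, had 10 of its 39 tested regions higher, and PDE4D, a cAMP phosphodiesterase gene, 10 of 83. VPS13B had 9 of 35, GRM7 9 of 37 with 1 lower, and PTPRM 9 of 52. Over all regions tested, 7.16% were higher, and these genes were picked for their counts. The GRM7 region of smallest p moved from 52.1, 56.1 and 56.0 to 90.9, 88.3 and 88.6 (34.6, SE 2.10, limma adjusted p = 5.03e-08), a rise in a peak that every library had. In the other direction, CD44, which encodes a cell surface receptor for hyaluronan, had 3 of 10 regions lower and 1 higher. Its region 22.2 kb outside the gene (chr11:35116676-35117176) fell from 69.8, 72.0 and 80.7 to 0, 19.6 and 0.834 (−67.3, SE 11.2, limma adjusted p = 0.000997). LURAP1L had 3 of 18 lower and ASTN2 3 of 35.

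The classical receptor targets differed in how many of their regions were called. KLK3 had 4 of 6 tested regions higher, KLK2 2 of 5 and FKBP5 6 of 16, beside 7.16% of all regions, and none of these genes had a lower region. TMPRSS2, an androgen-induced protease gene, had 0 of 19, which is near that background and is no result about the gene. Its region of smallest p, within the gene, stood at 54.0, 43.1 and 0 with vehicle and 81.7, 73.9 and 70.9 at 0.06 nM. The libraries did not overlap, but the difference of 43.1 (SE 12.9) missed the threshold at a limma adjusted p of 0.0525. Over the alternatives its limma adjusted p ran from 0.0101 to 0.515.

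At KLK3 the clearest change lay 0.567 kb past the gene (chr19:50861081-50861581). No vehicle library listed a peak there, and the treated libraries had 83.6, 83.1 and 75.2 (difference 80.6, SE 4.92, limma adjusted p = 5.18e-08). A region 4.01 kb before the start, where the well-known KLK3 enhancer lies, had a peak in both groups, at 77.4, 69.6 and 67.0 with vehicle and 90.5, 87.7 and 75.9 at 0.06 nM (13.4, SE 3.34, limma adjusted p = 0.0198). One treated library there lay below the highest vehicle library, so the groups overlapped. This enhancer call was lost without 0.06 nM replicate 3 (limma adjusted p = 0.119) or 4 (0.0993) and without vehicle replicate 4 (0.0636) or 5 (0.0667). Ranked by fold enrichment, its difference was −6.79 and was not called (limma adjusted p = 0.730). At KLK2 a region 9.21 kb outside the gene went from 87.2, 87.5 and 75.4 to 95.6, 96.2 and 94.1 (12, SE 2.30, limma adjusted p = 0.00359), with no overlap. This KLK2 call was lost when peaks were ranked by fold enrichment (limma adjusted p = 0.0602), with only entries at a −log10 q of 5 or more (0.0506) and with only the 6 libraries (0.0871).

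FKBP5 encodes a cochaperone of steroid receptors that feeds back on hormone signalling. Its largest change was mid-gene (chr6:35610804-35611304), at 0 in all vehicle libraries and at 83.4, 83.8 and 86.2 at 0.06 nM (84.5, SE 4.26, limma adjusted p = 8.32e-09). A region 5.97 kb inside the 5′ end also appeared from 0 in all 3, at 73.4, 73.0 and 40.9 (62.4, SE 8.57, limma adjusted p = 0.000192). Right at the 5′ end, 0.463 kb inside the gene, the peak was strong in every library, at 92.8, 93 and 92.1 with vehicle and 95.2, 97.0 and 97.3 at 0.06 nM (3.91, SE 0.803, limma adjusted p = 0.00520). On a scale that ends at 100, this last region had little room to gain. Under ranking by fold enrichment neither of the 2 regions near the 5′ end was called, and the one at the end itself differed by −4.05 (limma adjusted p = 0.816).

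Among the genes of factors that share enhancers with the receptor, FOXA1 had 0 of 7 regions higher, HOXB13 0 of 4 and GRHL2 5 of 32, beside 7.16% of all regions. Counts of 0 among so few regions are near that background and are no result about these genes. The GRHL2 region of smallest p, within the gene, was unlisted with vehicle and had 79.4, 77.0 and 82.1 at 0.06 nM (79.5, SE 4.40, limma adjusted p = 1.96e-08). At FOXA1 the region of smallest p had 25.6, 39.3 and 67.7 with vehicle and 19.9, 9.27 and 27.7 at 0.06 nM, with overlap and a limma adjusted p of 0.237.

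Most genes on the list of androgen-induced genes had a region that gained rank. Of its 50 genes, 49 had a tested region and 35 had at least 1 higher region, and 14.2% of their 555 regions were higher. Among all 17524 genes with a tested region, 26.1% had a higher and 5.25% a lower region, and with genes assigned only within 50 kb these shares were 24.6 and 4.84%. A gene with more tested regions has more chances of a call. Gene counts here and in the lists below were not adjusted for this. The median difference over the list's regions was 3.25 points, beside 0.261 over all regions tested. The list was drawn up with earlier results of these data known, and its share is a description. Fitting only the 6 libraries left 18 of the genes, and leaving out single libraries left 28 to 38. PGC, which encodes progastricsin, a protease of semen, had a region 0.344 kb outside the gene at 6.53, 0 and 0 with vehicle and 88.5, 88.0 and 71.4 at 0.06 nM (80.4, limma adjusted p = 4.22e-07). TRPM8, the cold-sensing channel gene, had 14.1, 20.5 and 0 against 83.1, 84.5 and 81.3 (71.4, limma adjusted p = 5.71e-07). NDRG1, a stress-response gene, had 67.8, 65.3 and 68.8 against 85, 86.8 and 85.6 (18.5, limma adjusted p = 9.79e-06), a call lost under ranking by fold enrichment (0.0955). In the first 2 a peak appeared or grew from near the bottom of the list, and in NDRG1 a peak present in every library strengthened.

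Against that direction, 3 androgen-induced genes had a region that fell, each beside another that rose. ACP3 encodes prostatic acid phosphatase, and a region 69.0 kb outside it had 86.6, 86.9 and 87.3 with vehicle and 60.9, 62.6 and 60.4 at 0.06 nM (−25.6, SE 4.47, limma adjusted p = 0.00152). The libraries of each group lay within 3 points of one another. Its region 49.6 kb outside rose from 83.3, 69.8 and 86.6 to 91.4, 91.5 and 92.6 (12, limma adjusted p = 0.0226). The call of the rise was lost without any 1 of the 0.06 nM replicates 3, 4 or 5 (limma adjusted p = 0.0644, 0.0664 and 0.0710). RAB4A, a small GTPase gene, lost a region listed at 44.8, 55.1 and 14.5 (−38.2), and HERC3, a ubiquitin ligase gene, lost one at 41.0, 54.7 and 50.2 (−48.7). Both had 0 in all libraries at 0.06 nM.

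Genes known to be repressed by androgen had regions called in both directions. Of 17 such genes with a tested region, 8 had a higher and 3 a lower region, PRUNE2, CDH2 and CAMK2N1, beside 26.1 and 5.25% of all genes. The list's 175 regions included 17 higher (9.71%, beside 7.16% of all regions) and 4 lower (2.29%, beside 0.997%), and the median difference was 0.895, beside 0.261. LRRN1, a membrane protein gene, had a region at 0 with vehicle and at 80.1, 77.8 and 72.5 at 0.06 nM (76.8, limma adjusted p = 6.01e-07). MET, the hepatocyte growth factor receptor gene, had 42.4, 40.0 and 58.9 against 78.1, 74.0 and 75 (28.6, limma adjusted p = 0.000962). The glucocorticoid-shared targets, which the related glucocorticoid receptor also induces, had a higher region in 10 of 14 genes, 14.9% of 154 regions and none lower. Of these genes, FKBP5, TSC22D3, KLF9, SGK1, ERRFI1 and ZBTB16 are also on the androgen-induced list. FKBP5 alone held 6 of the 23 higher regions. ANGPTL4, a secreted lipase inhibitor, had a region at 0 with vehicle and at 76.0, 75.8 and 59.5 (70.4, limma adjusted p = 0.000114).

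Luminal and pioneer factors had a higher region in 15 of 26 genes and 9.6% of 396 regions. Of all genes 26.1% had a higher and 5.25% a lower region, and 7.16% of all regions were higher. NFIA, NFIB and ERG held a lower one, but lower regions made up 1.01% of the list's regions, near the 0.997% of all. NFIB encodes a nuclear factor I protein, and its leading region had 34.2, 20.5 and 27.5 with vehicle and 86.7, 86.0 and 85.2 at 0.06 nM (58.6, limma adjusted p = 1.17e-07). Among 20 coregulators of the receptor, 8 had a higher region, 4.96% of 242 regions, beside 7.16% of all regions. PRMT1 had a lower one, 0.413% of the list's regions. The leading regions were at KMT2D, a histone methyltransferase gene (27.8 to 74.8 in group means, difference 47.0), and SMARCA2, a chromatin remodeller gene (difference 66.5).

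Among cell cycle and replication genes, a higher region was found at CDK6, CDK1, MCM4 and AURKA, 4 of 30 genes beside 26.1% of all genes. Of the list's 131 regions 3.82% were higher, beside 7.16% of all regions. The MCM4 call was lost without 0.06 nM replicate 4 (limma adjusted p = 0.0620). MKI67, the proliferation marker gene, had the list's lower region, 79.6 kb away, at 74.7, 61.2 and 60 with vehicle and 12.9, 32.2 and 14.7 at 0.06 nM (−45.3, SE 9.69, limma adjusted p = 0.00702). The MKI67 call was lost with lists as deposited. Lower regions made up 0.763% of the list's regions, beside 0.997% of all regions. At CDK6, a kinase gene of G1 phase, a region went from 37.1, 34.9 and 14.5 to 77.9, 78.6 and 77.7 (49.2, limma adjusted p = 3.77e-05). Cell cycle inhibitors had 7 of 20 genes and 6.63% of 166 regions higher. A region 78.9 kb from FOXO1, a growth-restraining transcription factor gene, had 0 with vehicle and 76.5, 77.8 and 66.2 at 0.06 nM (73.5, limma adjusted p = 6.82e-07).

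Metabolic lists had shares of higher regions on both sides of the 7.16% of all regions, and 26.1% of all genes had a higher region. Lipid and sterol synthesis genes had 12 of 26 with a higher region, but 7.28% of 261 regions, near the share of all regions. SOAT1 also had a lower one, 0.383% of the list's regions beside 0.997% of all regions. ELOVL5, a gene of fatty acid elongation, had a region at 58.9, 59.3 and 66.2 with vehicle and 89.1, 91.1 and 79.9 at 0.06 nM (25.2, limma adjusted p = 8.36e-05), a call lost under ranking by fold enrichment (0.149). Polyamine genes had 3 of 11, ODC1, SMS and AZIN1, and 4.55% of 88 regions. The SMS region of smallest p lost its call without 0.06 nM replicate 3 (limma adjusted p = 0.139) or 4 (0.168), and that of AZIN1 without the same libraries (0.147 and 0.104). Over all alternatives the SMS call was lost in 13 of 21. The AZIN1 call was lost in 16 of 21, among them lists as deposited. ODC1, the rate-limiting enzyme of that pathway, had 26.0, 27.1 and 32.0 against 74.7, 66.3 and 61.2 (39.0, limma adjusted p = 0.000380). Glycolysis and mitochondrial genes had 7 of 21 and 9.84% of 183 regions, with LDHA also holding a lower one (0.546% of the list's regions). They were led by PPARGC1A, a coactivator gene of mitochondrial biogenesis (0 with vehicle, 74.9, 72.6 and 70.8 at 0.06 nM, difference 72.8, limma adjusted p = 1.07e-06). Unfolded protein response genes had 4 of 15 and 3.92% of 102 regions. Genes of androgen synthesis and inactivation had 4 of 18 and 5% of 80, among them SRD5A2, a steroid reductase gene (0 with vehicle, 59.3, 59.0 and 56.8 at 0.06 nM, limma adjusted p = 0.000270).

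Called regions of the marker lists were mostly higher ones, whereas the median difference over each list's regions was slightly negative. It was −0.534 for luminal, −1.79 for basal, −0.546 for stromal, −2.98 for immune and −1.59 for neuroendocrine markers and −0.260 for housekeeping genes, beside 0.261 over all regions. Luminal markers had 5 of 10 genes and 11.8% of 93 regions higher, and housekeeping genes 2 of 18 and 3.19% of 94, beside 26.1% of all genes and 7.16% of all regions. Basal markers had 2 of 9 genes higher, TP63 and DSC3, and 8.51% of 47 regions. The TP63 region, 9.76 kb outside the gene of that basal transcription factor, had 0, 25 and 0 with vehicle and 80.7, 79.6 and 75.5 at 0.06 nM (70.2, limma adjusted p = 1.74e-06). Stromal markers had 3 of 10 genes with a higher region and 8.82% of 34 regions, and COL1A2, a collagen gene, also had a lower one, at 53.1, 60.5 and 52.5 with vehicle and 0 in all 3 at 0.06 nM (−55.4, SE 6.11, limma adjusted p = 2.21e-05). Immune markers had 3 of 6 genes with a higher region, 14.3% of 28 regions, and CD3E also had a lower one. Of 12 neuroendocrine markers only POU3F2 was called, with 1 higher and 1 lower of the list's 47 regions. The stromal, immune and neuroendocrine lists had 1 lower region each, beside 0.997% of all regions. The called regions of smallest p at ACTA2, FAP, LYZ and CD3E lost the call without 0.06 nM replicate 3 (limma adjusted p = 0.0635, 0.110, 0.0990 and 0.100). That at POU3F2 lost it without 0.06 nM replicate 5 (0.0530). Those at COL1A2, PTPRC, TP63 and DSC3 kept it with any 1 library left out. Summed over the stromal markers, ranks near gene ends ran from 165 to 197 with vehicle and from 168 to 185 at 0.06 nM. For immune markers the sums were 96.7 to 191 and 99.1 to 212, for neuroendocrine markers 754 to 827 and 771 to 801 and for basal markers 341 to 408 and 324 to 355. MS4A1, ITGAM, LYZ and NKG7 had no peak near a gene end in any of the 6 libraries. The same held for COL1A1, COL3A1, VIM, DCN, PDGFRB and FAP, and for INSM1 and NEUROD1.

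**Figure D3:**
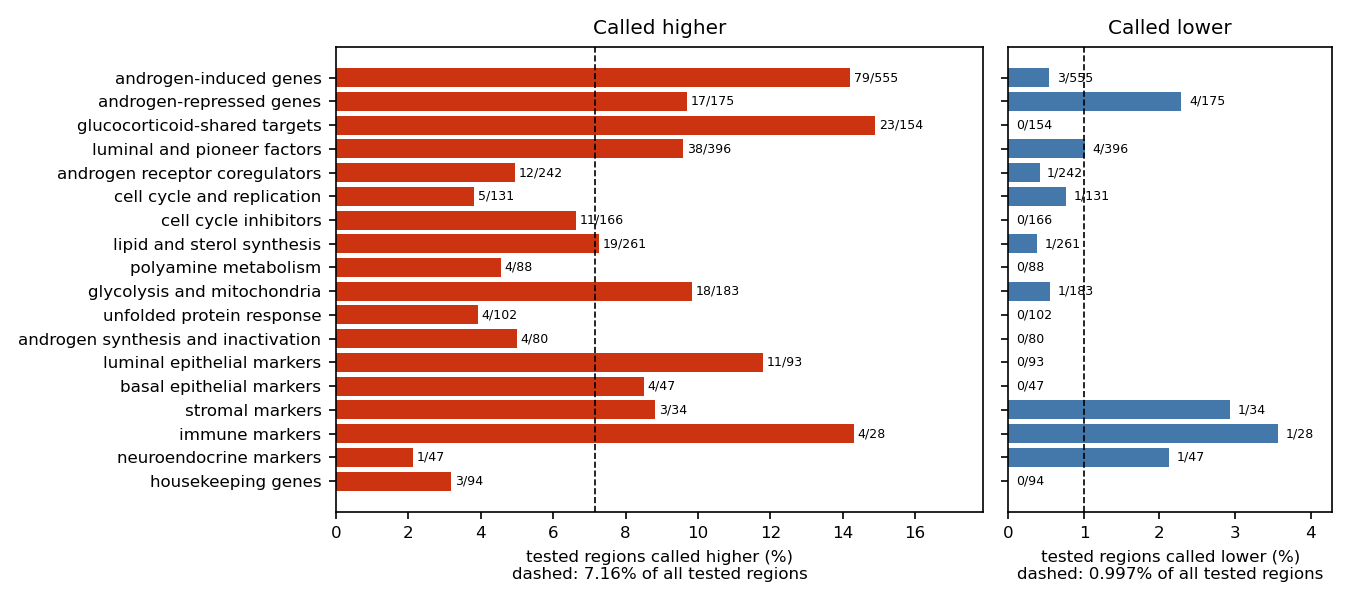
Percent of the tested regions assigned to each gene list that were called higher (left) and lower (right) at 0.06 nM, with the counts beside each bar. The dashed lines mark 7.16% and 0.997% of all tested regions. Glucocorticoid-shared targets (14.9%) and androgen-induced genes (14.2%) have the longest bars for higher regions among lists of over 100 regions. These lists share genes, FKBP5 among them.

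Called regions were rare near the ends of genes. Of all tested regions, 15% lay within 1 kb of a gene end, against 2.64% of those called higher and 4.19% of those called lower. The share called higher was 1.26% of the 18272 regions within 1 kb and 9.80% of the 26658 regions beyond 100 kb, with 5.67, 7.13, 8.38 and 8.83% in the steps between. The lower regions had 0.279% within 1 kb and 1.32% beyond 100 kb. The median distance to a gene end was 43.7 kb for higher, 36.6 kb for lower and 24.7 kb for all regions tested. The share called also moved with the starting rank, whose part in these distances was not tested. Of regions with a vehicle mean above 75, 2.42% were called higher, against 7.98% of those above 0 and up to 25.

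**Figure D4:**
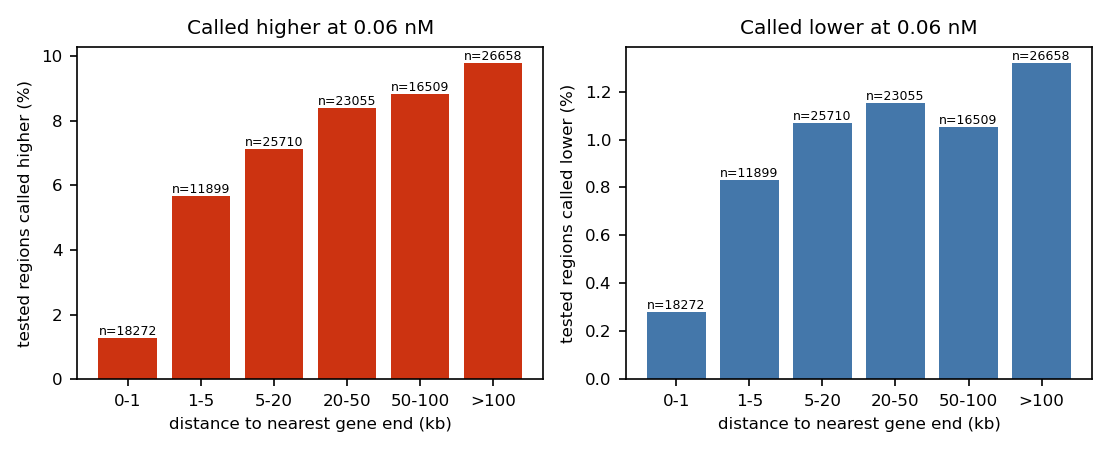
Percent of tested regions called higher (left) and lower (right) at 0.06 nM by distance to the nearest gene end in kb, with the number of regions tested above each bar. The bars for higher regions run from 1.26% within 1 kb to 9.80% beyond 100 kb.

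Of 34789 RefSeq promoters, none of them on chromosome 8, 14207 had a tested region centred within 250 bp of the start. Higher regions lay at 64 of these (0.450%) and lower ones at 26 (0.183%). With 2 other ways of assigning peaks to windows, 58 of the 64 and 17 of the 26 were called each time. The promoter of LINC02511, a noncoding gene, had 0 with vehicle and 78.4, 84.2 and 75.3 at 0.06 nM (79.3, SE 4.74, limma adjusted p = 4.27e-08). LNPEP, an aminopeptidase gene, had 0 with vehicle and 69.6, 78.7 and 52.1 (66.8, SE 7.89, limma adjusted p = 4.49e-05). NEDD4L, a ubiquitin ligase gene, had 80.8, 70.8 and 72.1 against 89.9, 86.2 and 87.2 (13.2, SE 2.52, limma adjusted p = 0.00306), a call lost under ranking by fold enrichment (0.582) and with only the 6 libraries (0.0708). AKAP14, an anchoring protein gene, was the other way, from 42.4, 53.6 and 36.7 to 0 in all 3 (−44.2, SE 9.32, limma adjusted p = 0.00633). LINC02511, LNPEP and AKAP14 passed the filter only through the group where they had peaks.

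Some of the promoters that rose hold letters of the receptor element. The search covered 250 bases before to 50 after the start, on both strands, with N for any base. The relaxed element (GNACA, any 3 bases, TGTNC) was present in 6 of the 64 higher promoters (9.38%), 0 of the 26 lower, 0.246% of tested and 0.391% of all promoters. AGAACA, which makes up one side of the full element and can lie within a match of the relaxed one, was present in 27 of 64 (42.2%), 5 of 26 (19.2%), 8.26% and 14.8%. The full element (AGAACA, any 3 bases, TGTTCT) was in 1 promoter of all 34789 and in no tested one. TGTTTAC, the FOXA letters, was in 9.38, 11.5, 2.67 and 3.42% of the same 4 sets, and TGANTCA, for AP-1, in 12.5, 15.4, 4.34 and 7.69%. CCGGAAG, for ETS factors, was in 4.69, 0, 18.9 and 10.2%. AACCGGTT, for grainyhead factors, and TTGGC and GCCAA with any 5 bases between, for nuclear factor I, were in none of the called promoters and in 0.132 and 0.0287% of all. The sets differed in base composition, with a median GC content of 47.0% in higher, 56.8% in lower, 66.0% in tested and 58.7% in all promoters, and its part in these shares was not tested. A match is a description of letters and shows no binding.

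In regions defined by the vehicle and 0.06 nM libraries, 0.06 nM lay in the middle of a graded series of counts. With the same vehicle libraries in each comparison, 4150 regions were called at 0.03 nM (3.4%), 9959 at 0.06 nM (8.16%), 14869 at 0.1 nM (12.2%) and 30999 at 10 nM (25.4%). Higher regions made up 88.1, 87.8, 75.5 and 50.2% of these calls in the same order. Regions with peaks only at another dose could not enter, so the counts and splits are not on equal terms. The median rank of the regions higher at 0.06 nM was 12.1 with vehicle, 54.6 at 0.03 nM, 68.2 at 0.06 nM, 72.9 at 0.1 nM and 78.9 at 10 nM. The regions lower at 0.06 nM stood at 50, 22.9, 7.20, 6.15 and 0 in the same order. The weakest −log10 p kept was at most 2.99 with vehicle, 2.31, 2.97 and 6.42 at 0.06 nM and 4.40, 8.93 and 8.32 at 10 nM. A 0 at 10 nM or in 0.06 nM replicate 5 can therefore hide a peak strong enough to be listed with vehicle. With lists as deposited, 353 regions were called lower at 0.06 nM, beside 1217 here. The part of the cut in this fall was not tested. Of the 8742 higher regions, 6089 (69.7%) had a peak in all 3 libraries at 0.03 nM, 8531 (97.6%) in all 3 at 0.1 nM and 8598 (98.4%) in all 3 at 10 nM. Since the regions were selected at 0.06 nM, these levels are a description.

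**Figure D5:**
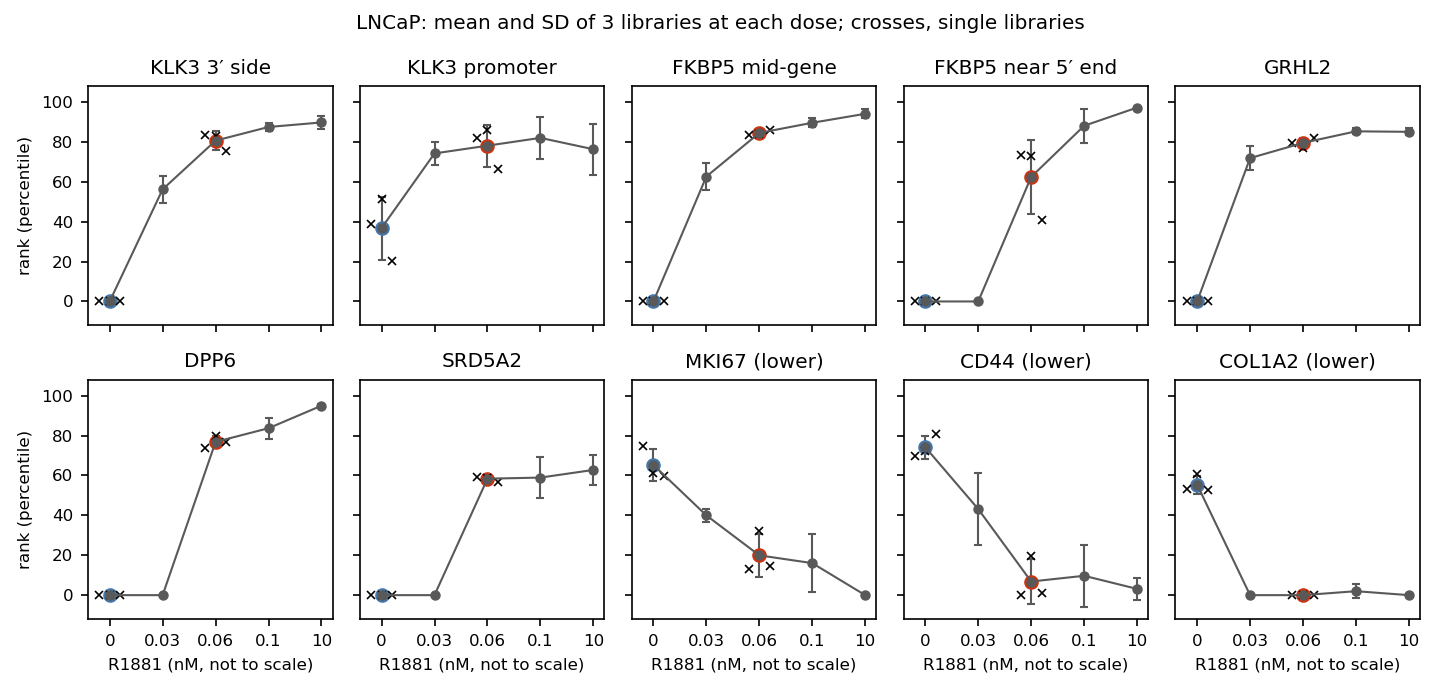
Rank of the peak (vertical axis, percentile) with vehicle and 4 doses of R1881 (horizontal axis, nM, not to scale) at 10 regions in LNCaP, as mean and SD of 3 libraries, with crosses for the single vehicle and 0.06 nM libraries. DPP6, SRD5A2 and the FKBP5 region near the 5′ end stay at 0 up to 0.03 nM, whereas MKI67, CD44 and COL1A2 decline from vehicle to 0.06 nM.

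Set directly against 0.03 nM, 0.06 nM had 420 called regions (0.344%), 407 higher (0.333%) and 13 lower (0.0106%). Peaks at 0.06 nM admitted a region to the test and peaks at 0.03 nM did not, which tilts this split toward higher regions. The count was 95 without 0.06 nM replicate 3 and 86 without replicate 4, and 737 and 251 without 0.03 nM replicates 3 and 4. Of the 407, 267 had no peak in any 0.03 nM library and 216 none with vehicle either, so for these 216 the first listed peak of the dose series came at 0.06 nM. Whether entries are missing from the 0.03 nM lists is not known. A region within DPP6, a gene for a potassium channel auxiliary protein (chr7:154847847-154848347), was at 0 in all vehicle and 0.03 nM libraries and at 73.9, 80.0 and 76.6 at 0.06 nM (76.8 above 0.03 nM, limma adjusted p = 7.46e-05). It stood at 83.7 at 0.1 nM and 95.0 at 10 nM. A region within ITPR2, a gene of an inositol trisphosphate receptor, had 0 in the same 6 libraries and 71.0, 73.7 and 71.1 at 0.06 nM (71.9, limma adjusted p = 0.000229). Both were tested only because all 3 libraries at 0.06 nM had a peak.

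Among the named regions, SRD5A2 and the FKBP5 region 5.97 kb inside the 5′ end showed the same step. Both were at 0 in every 0.03 nM library, and the differences were 58.4 (limma adjusted p = 0.00623) and 62.4 (limma adjusted p = 0.00488). Each call was lost without 0.06 nM replicate 4 (limma adjusted p = 0.0505 and 0.0509). PPARGC1A differed by 39.4 (limma adjusted p = 0.00979), and lost this call without 0.06 nM replicate 3 (0.0797) or 4 (0.0675). KIRREL3 was the other way, at a mean of 61.1 at 0.03 nM and 0 at 0.06 nM (limma adjusted p = 0.0222). That call ended when any of 5 libraries was left out, 0.03 nM replicate 4 or 5 or any at 0.06 nM (0.0510 to 0.115). Between 0.1 and 0.06 nM, limma called 0 regions (0.0%, smallest adjusted p = 0.0589), and 2801 had an unadjusted p under 0.05. Leaving out single libraries gave 0 to 6 calls, so the step from 0.06 to 0.1 nM was not resolved in single regions.

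PRUNE2 went against the dose order in the shortened lists. Its region within the gene had 33.5, 35.6 and 18.6 at 0.06 nM and 0 with vehicle (29.2, SE 5.77, limma adjusted p = 0.00393). It was at 0 in all libraries at 0.03 and 10 nM, and its mean at 0.1 nM was 1.03. The difference from 0.03 nM was called, but this call was lost in 7 of 9 alternatives, among them lists as deposited. The weakest −log10 p kept at 10 nM was 4.40, 8.93 and 8.32, so a 0 there can hide a weaker peak. Of the higher regions, 27 had no peak in any library at 10 nM. LOC124901866 was a counterpart among the falls, at 64.1, 64.9 and 69.1 with vehicle, 0 in all 3 at 0.06 nM, and means of 18.3 at 0.03, 38.8 at 0.1 and 54.5 at 10 nM.

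VCaP, another prostate cancer line, shared part of the rises and few of the falls. In the same 122103 regions, VCaP at 0.06 nM against its own vehicle had 2453 higher (2.01%) and 1122 lower (0.919%). Of these, 1571 regions were higher in both lines, 18.0% of the LNCaP and 64.0% of the VCaP set. Only 44 were lower in both, 3.62 and 3.92% of the sets. Another 5 were higher in LNCaP and lower in VCaP, and 1 was the reverse. No VCaP library of the 6 compared had a peak at 23.8% of the regions higher in LNCaP and 54.3% of those lower, beside 29.6% of the regions tested. The VCaP background pileup was 1.14, 1.09 and 2.11 with vehicle and 2.51, 2.05 and 2.69 at 0.06 nM, with vehicle replicates 1 and 2 lowest and the groups overlapping, and its part in these counts was not tested. The regions were defined in LNCaP.

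A fit over all 30 libraries tested the difference in change between the lines. It called 3543 regions (2.9%), 2688 with a more positive change in LNCaP (2.2%) and 855 with a more negative one (0.7%). At the CTAGE1 and CACNG4 regions both lines went from 0 with vehicle, to VCaP means of 71.5 and 77.6 at 0.06 nM. At KLK3 the region past the gene was at 0 in all VCaP libraries compared, and its change differed by 80.6 points between the lines (limma adjusted p = 1.26e-07). Without LNCaP vehicle replicate 5 the number of regions with a more negative change in LNCaP was 2657, and without VCaP 0.06 nM replicate 4 it was 568.

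The threshold fell among regions of moderate change. Just inside it were regions at KCNAB1 (−35.4), PALM (31.3) and GMNC (51.0), and just outside it regions at SLX4IP (39.1), NAALADL2 (29.5) and NUBPL (−34.2).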

How the data were processed

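The 6 LNCaP libraries (3 vehicle, 3 at 0.06 nM R1881) were grouped by their labels, and the other 24 served only to estimate the spread and for the stated dose and line comparisons. Per the submitters' processing notes, the tools were MACS2 2.2.7.1, BWA 0.7.17, deepTools 3.5.1 and Trimmomatic 0.39, on GRCh38 (hg38). Which step each served, and the peak caller's settings, are not given in the sources used here. The authors deposited 1 narrowPeak list per library. The deposited score equals the −log10 p times 10 without its decimals. Fold enrichment at the summit over local background is deposited as a ratio. The deposited −log10 p and −log10 q belong to the summit, whose offset in bp is a further deposited column.

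From these, every LNCaP list was shortened to 134750 entries (VCaP 104726) by −log10 p. Windows reaching 250 bp to either side of summits were placed strongest first without overlap, on chromosomes 1 to 22 and X. A window took the percentile rank of the entry covering its centre. limma 3.58.1 (R 4.3.3, trend and robust moderation, group means, two-sided) was fitted to 15 LNCaP libraries, or to all 30 for the line difference, and was tested on simulated data. The files hold no read counts, so the read depth is unknown. A relative background pileup was solved from fold enrichment and −log10 p under a Poisson model. All solved pileups (100%) were whole numbers to a tolerance of 0.05. A list cut at a threshold turns weak signal into 0, and ranks show a peak's place in its library, not absolute signal.

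Genes were the nearest of 19974 RefSeq protein-coding gene bodies on GRCh38.p14, within 100 kb. Promoter sequences were RefSeq's for that build, and the set used held none on chromosome 8. Python 3.11.15 with pandas 2.3.3, numpy 2.4.6, scipy 1.17.1 and matplotlib 3.10.9 did the rest.

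The members, gene lists, tests and alternatives were chosen with earlier results of these data known. Named regions were the 10 largest rises and falls among called regions with separated groups, the regions of smallest p of listed genes and of KLK3, KLK2, FKBP5, TMPRSS2, FOXA1, HOXB13 and GRHL2, the genes with most called regions, those nearest the threshold and the largest differences from 0.03 nM. Some named items are not reported here. Other regions of those genes and single promoters were chosen after their values were seen. Alternatives changed the overlap rule, list length, ranking, filter, scale, libraries fitted and block.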

Additional observations from a re-analysis of the deposited data

Results flagged for a closer look

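The change at 0.06 nM differed between LNCaP and VCaP at 38 of the named regions reported here, by limma over all 30 libraries (adjusted p under 0.05). Values below are the LNCaP change minus the VCaP change in percentile points. VCaP vehicle replicates 1 and 2 had the lowest background pileups (1.14 and 1.09), and the part of depth was not tested.

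At regions where VCaP had no peak with vehicle or at 0.06 nM, the difference is the LNCaP change itself. It was 84.5 at FKBP5, 80.6 at KLK3, 71.0 at DSC3, 70.2 at TP63, 69.4 at BTG1, 66.5 at SMARCA2, 58.4 at SRD5A2, 47.0 at KMT2D and 29.2 at PRUNE2. Among falls it was −67.3 at CD44, −66.0 at LOC124901866, −63.4 at KIRREL3, −63.1 at KCNA4, −61.7 at SLIT1, −61.5 at SPOCK1, −60.8 at OLFML3, −57.8 at TULP4, −55.4 at COL1A2, −45.3 at MKI67 and −35.4 at KCNAB1. A small VCaP peak was listed in part of its libraries at PGC (71.3), ANGPTL4 (66.8), E2F7 (50.9), EEF1A1 (46.7), BCHE (46.4) and OR6J1 (−46.8).

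Elsewhere VCaP had the peak already. At OTOL1 the VCaP mean was 93.4 with vehicle and 95.0 at 0.06 nM, for a difference of 87.7. The same held, with high VCaP vehicle ranks, at PTPRM (30.4), HSD17B6 (27.2), CHRNA2 (22.1) and TFRC (14.1). VCaP also gained at EMB (42.0), from 0 to a mean of 47.4. At TRPM8 (51.6), SNX25 (49.8), VPS13B (45.7) and MAB21L3 (31.5) it went from means of 67.3, 57.0, 69.2 and 40.5 to 87.2, 98.3, 87.5 and 97.5. On a scale that ends at 100 VCaP had no room there for the LNCaP gain. Where its peak was already high, the VCaP mean rose at CHRNA2 (81.8 to 86.7). It fell at PTPRM (90.4 to 89.1), HSD17B6 (85.7 to 81.0) and TFRC (90.0 to 86.2). The part of the starting rank in these differences was not tested. At DDC (−13.0) VCaP went from 74.5 to 95.5, beside a LNCaP change of 7.99.

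SASH1 had opposite changes. Its region fell by 59.3 points in LNCaP, while the VCaP means were 31.1 with vehicle and 68.7 at 0.06 nM, and the difference between the lines was −96.9 (limma adjusted p = 0.00478).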

How the results depend on the processing

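Against the 9959 regions called at 0.06 nM (8742 higher, 1217 lower), 5 settings gave much smaller counts. The 50000 strongest entries gave 4821 (3602 higher). Regions with a peak in all 6 libraries gave 2817 (2531 higher, 286 lower), and their summit pileups 4123 (2835 higher). Only the 6 libraries gave 3256 (3063 higher, 193 lower). The 6 libraries with the replicate block, added after seeing the data, gave 0 calls by limma with 22119 unadjusted p under 0.05. Lower regions numbered 353 with lists as deposited, 101 with −log10 q of at least 5, 3469 with normal scores, 1876 without trend or robust moderation, 1965 without replicate 5 of both groups, and 629 to 2714 with 1 library left out. Leaving out 1 library gave 86 to 737 regions against 0.03 nM (420 with all), 0 to 6 at 0.1 against 0.06 nM (0), and 2396 to 5381 for the line difference (3543), of which 568 to 2657 were more negative in LNCaP (855). With lists as deposited that last number was 491. Androgen-induced genes with a higher region numbered 18 with only the 6 libraries and 0 with their block (35). Cell cycle and replication genes with a lower region numbered 0 within 50 kb (1). Within 5 kb of a gene end lay 10.4% of higher, 12.3% of lower and 24.7% of tested regions. The cause of these shifts was not tested.

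The replicate block in the 15-library fit gave 11843 calls (10172 higher, 1671 lower), 422 against 0.03 nM, 0 at 0.1 against 0.06 nM (3855 unadjusted) and 4775 for the line difference. Deviations of same-numbered libraries correlated at 0.0858, 0.0961 and 0.173, each the highest of its row and column. Spearman's rho of 0.06 nM replicate 5 was 0.913 with 0.1 nM replicate 5, beside 0.833 and 0.837 within its group. That of 0.03 nM replicate 5 was 0.845 with 0.06 nM replicate 5, beside 0.814 and 0.807 within its group. For 0.03 nM replicate 3 it was 0.850 with 0.06 nM replicate 3 and 0.853 with 0.03 nM replicate 4. The labels do not say what a replicate number marks, so the numbers were not taken to pair libraries in the main fit.

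Directions reversed at NAALADL2 (not called), to −8.64 with 1 bp overlap, −20.4 with the 50000 strongest entries and −2.19 with −log10 q of at least 5. Ranked by fold enrichment, the KLK3 region 4.01 kb before the start went to −6.79 and the FKBP5 region at the 5′ end to −4.05. Unknown read depth limits all values of 0.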

Other observations

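Some regions were listed with vehicle and at 0.06 nM but in no library at 0.03 nM. At BPIFA1, a gene for a secreted airway protein, ranks were 83.3, 82.6 and 87.8 with vehicle, 0 in all 3 at 0.03 nM and 80.0, 79.2 and 81.6 at 0.06 nM (difference from 0.03 nM 80.3, limma adjusted p = 1.69e-06). At ATP5MC3, which encodes a subunit of mitochondrial ATP synthase, they were 81.6, 76.6 and 83.0, then 0 in all 3, then 76.4, 74.8 and 83.8 (78.3, limma adjusted p = 3.48e-06). CUX1, a homeobox gene, had 67.6, 52.9 and 63.2, then 0 in all 3, then 75.1, 67.3 and 68.7 (70.4, limma adjusted p = 7.46e-05). None of the 3 was called at 0.06 nM against vehicle. Of the 407 regions higher at 0.06 than at 0.03 nM, 17 had a peak in all 3 vehicle libraries and in none at 0.03 nM. Whether entries were left out of the 0.03 nM lists is not known, which limits every 0 at that dose.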
